A study of Mus musculus with 6 samples.

Results

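The respiratory chain genes described here are the 101 of 32286 annotated features whose symbols name a subunit of complexes I to V. They divide into 13 genes of mitochondrial DNA and 88 nuclear genes. The 13 are called mitochondrial mRNAs below, 1 per gene, although some neighbouring ones overlap and are not separate transcripts. The rule uses symbols alone and no measured value: symbols that start with mt-Nd, mt-Co, mt-Cy, mt-Atp, Ndufa, Ndufb, Ndufc, Ndufs, Ndufv, Sdha to Sdhd, Uqcr, Cox4 to Cox8 or Atp5, without Ndufa4l2, the Ndufaf assembly factors and pseudogenes marked -ps. Complex I has 7 mitochondrial and 37 nuclear members, complex II has 4 nuclear members, complex III 1 and 8, complex IV 3 and 18, and complex V 2 and 17. The prefix Sdha also takes in 4 assembly factors of complex II (Sdhaf1 to Sdhaf4), which are counted apart.

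Complexes I to IV, in the inner mitochondrial membrane, carry electrons from NADH and succinate to oxygen. Complex V, the ATP synthase, uses the proton gradient that this transfer builds. Complex II is wholly nuclear, and the other complexes join subunits of both genomes, so a cell has to match transcripts made in the nucleus with transcripts cut from long precursors of mitochondrial DNA. Brain capillary endothelium is known as rich in mitochondria for a vascular lining, and the mural cells of the vessel wall (pericytes on capillaries, smooth muscle on larger vessels) use tissue-specific isoforms of some subunits.

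The cells come from mouse brain microvessels caught on magnetic beads with an antibody to PECAM1, an endothelial surface protein, and were counted by 10x Genomics single-cell RNA-seq. The 3 control libraries are from C57Bl6 mice with genotype Cldn5 fl/fl, R26 YFP/YFP, and the 3 Cldn5 iECKO libraries from mice that also carry Cdh5-creERT2, which drives Cre in endothelial cells so that claudin-5, a tight junction protein of the blood-brain barrier, is lost there. Both groups were given tamoxifen by gavage (100 µl of a 20 mg/ml solution on 3 days, at about 3 months of age), so the controls share the drug and the floxed and reporter alleles. Nothing in the labels ties a library to a single animal, so all p-values measure the spread between libraries, which may be technical, and the YFP transgene had 0 UMIs (unique molecular identifiers, the counted molecules) in every library, so recombined cells could not be marked by it.

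Per library there were 2714 to 7420 barcodes with 15727366 to 49350802 UMIs in total, from which 21916 endothelial cells, 358 pericytes, 659 smooth muscle cells and 670 microglia were used. Cells were clustered without the 101 members, so the members did not choose the classes or the endothelial zones, and each class held the summed markers of its own kind at levels of 15160 to 60629 CPM (UMIs of a gene per 1000000 UMIs of the class in a library). The targeted gene, Cldn5, was lower in iECKO endothelial cells by 0.80 ± 0.20 on the log2 scale (edgeR's quasi-likelihood test, Benjamini-Hochberg adjusted p = 0.279, and adjusted p = 0.00658 with the replicate number as a block). Replicate 2 of both groups stood apart: Gm42418 and AY036118, features that collect ribosomal RNA, took 19.0% and 16.4% of its endothelial UMIs against 2.97% to 8.21% in the other libraries. These features are therefore left out of the totals behind the shares and gene levels below. The totals behind the summed cell type markers keep them. Only 96 of 30490 barcode sequences occurred in more than 1 library. In these summed cell classes, fewer mitochondria per cell and less RNA per mitochondrion cannot be told apart.

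Promoter sequences are shown first because some nuclear members hold binding motifs of known regulators of respiratory chain genes. Of the 88 nuclear members, 73 have a promoter in RefSeq (GRCm38.p6, 250 bases before to 50 after the start). A form of the site of NRF1 (the letters GCGCA, any base, and GCGC in a row) was found on either strand in 19 of these 73 promoters (26.0%), against 5.19% of the promoters of 27025 symbols. CCGGAAG, a form of the site of GABPA, was found in 20 of 73 (27.4%) against 9.93%. The 120 bases upstream of the annotated start are printed 5′ to 3′ on the strand of the gene for 4 members, chosen after their values were seen, with matches to these letters, on either strand, in capitals. The first of these stretches holds both motifs and the next 2 hold 1 each. The last, from the gene with the second largest difference between smooth muscle and endothelial cells, holds neither in the printed 120 bases, but its whole scanned promoter of 300 bases is 1 of the 20 with the GABPA letters. A match is a description and not a proven site.
Sdhd (complex II membrane anchor, chr9:50603850-50603969, minus strand): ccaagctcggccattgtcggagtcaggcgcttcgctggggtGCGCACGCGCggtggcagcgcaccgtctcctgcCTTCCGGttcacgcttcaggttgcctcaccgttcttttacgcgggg
Uqcr11 (complex III, chr10:80406831-80406950, minus strand): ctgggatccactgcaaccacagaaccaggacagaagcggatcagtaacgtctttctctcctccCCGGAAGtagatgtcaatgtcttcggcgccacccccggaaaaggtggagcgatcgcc
Ndufa11 (complex I, chr17:56717642-56717761, plus strand): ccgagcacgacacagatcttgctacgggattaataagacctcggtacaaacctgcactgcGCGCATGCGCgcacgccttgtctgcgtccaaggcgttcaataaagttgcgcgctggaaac
Cox8a (complex IV, chr19:7217617-7217736, minus strand): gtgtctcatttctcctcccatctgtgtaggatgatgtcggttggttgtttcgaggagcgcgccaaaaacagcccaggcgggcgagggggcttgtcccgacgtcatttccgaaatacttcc

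In control endothelial cells the 13 mitochondrial mRNAs were the more abundant part: they made up 4.15% ± 0.758 of UMIs (SD, n = 3) and the nuclear members 1.85% ± 0.269. The mitochondrial mRNAs with the highest counts were mt-Atp6, the proton channel subunit of ATP synthase, at 8748 ± 1500 CPM, mt-Co2 and mt-Co1, catalytic core subunits of cytochrome c oxidase, at 6601 ± 1096 and 5599 ± 691 CPM, and mt-Cytb, cytochrome b of complex III, at 4067 ± 784 CPM. The leading complex I mRNAs were mt-Nd2 at 3295 ± 1385 and mt-Nd4 at 3062 ± 97.6 CPM. Counts here are ends of transcripts and not divided by length, so they rank what was counted and not the amount of each protein. Neighbouring mitochondrial genes overlap: mt-Atp8 shares 43 bases with mt-Atp6, mt-Nd4l 7 with mt-Nd4, and mt-Atp6 1 with mt-Co3, so their counts cannot be split cleanly.

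The leading nuclear members by complex were, for complex I, Ndufa4 (580 ± 97.4 CPM, a subunit first placed in complex I and later found in complex IV) and Ndufa7 (504 ± 92.2). In complex II they were Sdha (111 ± 10.5) and Sdhb (94.3 ± 12.5), the flavin and iron-sulphur subunits that oxidise succinate, and among its assembly factors Sdhaf4 (51.0 ± 6.26) and Sdhaf1 (41.8 ± 5.30). Complex III was led by Uqcrh (387 ± 44.1) and Uqcrb (382 ± 64.0), complex IV by Cox6c (620 ± 107) and Cox4i1 (519 ± 37.8), and complex V by Atp5j (629 ± 105), a part of the peripheral stalk, and Atp5e (575 ± 124). The sums by complex ran from 330 CPM for the 4 subunits of complex II to 6755 CPM for the 37 nuclear subunits of complex I. Some isoforms of heart and testis were close to absent: Cox7b2 had 0 UMIs in endothelial cells, Cox8c 1, Cox6a2 3 and Cox8b 11. Others were low but counted: Cox6b2 had 135 UMIs (1.08 ± 0.0576 CPM in controls) and Cox7a1 808 (7.22 ± 1.97 CPM). Cox7a1 made up 1.75% ± 0.268 (SD, n = 6) of the summed Cox7a1 and Cox7a2 UMIs.

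Smooth muscle cells carried the largest respiratory chain share of the 4 classes, pericytes and endothelial cells followed, and microglia had the smallest. The mitochondrial share of smooth muscle was 9.15%, 11.2% and 7.71% in controls 1 to 3 and 9.74%, 11.4% and 9.86% in iECKO 1 to 3, against 4.07%, 4.94% and 3.43% and 4.42%, 5.25% and 4.82% in endothelial cells of the same libraries. Every smooth muscle value lay above every endothelial value. The nuclear share of smooth muscle was 4.02%, 3.01% and 3.28% in controls and 3.22%, 2.80% and 3.06% in iECKO, against 2.12%, 1.58%, 1.85%, 1.80%, 1.49% and 1.88% in endothelial cells, again without overlap.

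Paired by library, the mitochondrial share of smooth muscle was 1.13 ± 0.05 higher on the log2 scale (SD over libraries, higher in 6 of 6), the nuclear share 0.85 ± 0.09 higher (6 of 6) and their ratio 0.28 ± 0.05 higher (6 of 6). Pericytes were higher in 6 of 6 libraries by 0.39 ± 0.18 for the mitochondrial and 0.19 ± 0.11 for the nuclear share. Microglia were lower in 6 of 6 libraries by 0.75 ± 0.24 for the mitochondrial share (log2 difference -0.75) and by 0.55 ± 0.14 for the nuclear share (-0.55). Each of these 7 differences reached the smallest p that 6 libraries allow in a two-sided exact sign-flip permutation test, and an adjusted p of 0.0402 over 9 tests. The mitochondrial to nuclear ratio of pericytes (0.19 ± 0.20, higher in 5 of 6, exact permutation p = 0.0938) and of microglia (-0.20 ± 0.20, higher in 1 of 6, exact permutation p = 0.0625) missed that threshold.

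The pericyte share is sensitive to which barcodes are kept. With cells limited to 5% mitochondrial UMIs the mitochondrial difference from endothelial cells was 0.0054 on the log2 scale (exact permutation p = 1.0), and with cells of 2000 to 6000 UMIs the ratio turned to -0.01. The pericytes kept had median depths of 2052 to 3014 UMIs per cell against 3661 to 5748 in endothelial cells. Before doublets and barcodes with many markers of another class were dropped, the pericyte cluster held 866 barcodes at a median of 6120 UMIs. Of these, 358 were kept. The pericyte values thus describe the part that was kept, and the part of this filter in their depth was not tested.

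**Figure D1:**
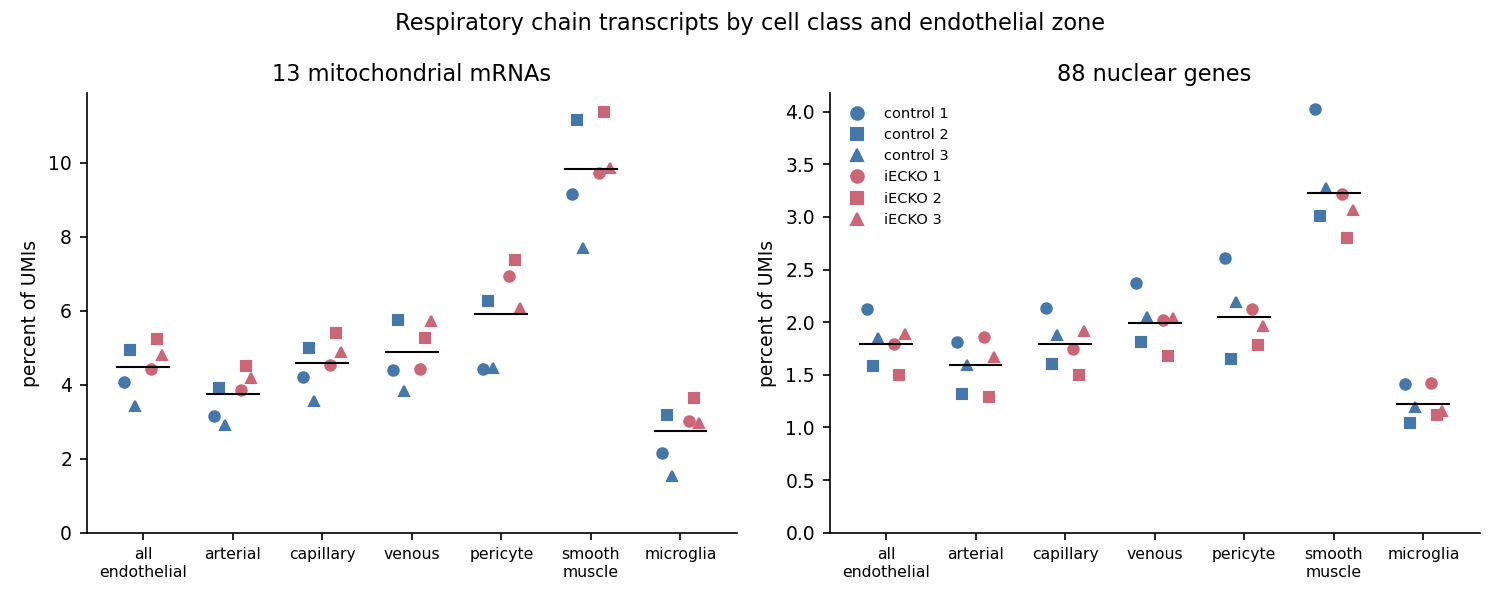
Percent of UMIs from the 13 mitochondrial mRNAs (left) and the 88 nuclear members (right) in each cell class and endothelial zone; each point is 1 library (colour: group, shape: replicate) and the bar is the mean of 6 libraries. Smooth muscle averages 9.83% and 3.23%, microglia 2.75% and 1.22%, and arterial cells lie below capillary cells in the left panel in every library.

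The rise in smooth muscle ran through every complex but not through every gene. Genes were called different between classes at an adjusted p under 0.05 over all genes and a difference of at least 2-fold (edgeR's quasi-likelihood test, library as a block). Of 96 members tested, 56 were called higher and 1 lower, where 15.2% of all 11826 genes were called higher and 21.7% lower. The median log2 difference was 1.35 for the 13 mitochondrial mRNAs and 1.06 for 83 nuclear members, against -0.12 for all genes. By complex, 22 of 37 nuclear subunits of complex I, 2 of 4 of complex II, 3 of 8 of complex III, 8 of 13 tested of complex IV and 10 of 17 of complex V rose, and 0 of the 4 Sdhaf factors.

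Among mitochondrial mRNAs, 11 of 13 rose, from 1.12 ± 0.07 (SE) for mt-Co2 to 1.86 ± 0.09 for mt-Nd4l, with mt-Cytb at 1.82 ± 0.08, mt-Nd5 at 1.81 ± 0.09 and mt-Nd4 at 1.70 ± 0.08. The exceptions, mt-Nd1 (0.94 ± 0.08) and mt-Nd6 (0.69 ± 0.12), missed the 2-fold limit, and mt-Nd6 is the member encoded on the opposite strand of mitochondrial DNA. In mt-Cytb, smooth muscle held 11944, 14812 and 10414 CPM in controls and 13333, 15122 and 13524 CPM in iECKO, against 3263 to 5243 CPM in endothelial cells. The classes did not overlap for this gene in any library.

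Apart from Cox4i2, treated with pericytes below, the largest nuclear rises in smooth muscle were Cox8a (2.33 ± 0.09), the general isoform of cytochrome c oxidase subunit VIII, Ndufa13 (1.93 ± 0.09) and Ndufb9 (1.81 ± 0.10), accessory subunits of complex I, and Sdhc (1.86 ± 0.10), a membrane anchor of complex II. Cox8a stood at 2649, 1945 and 2097 CPM in control smooth muscle and 1799, 1650 and 1980 CPM in iECKO, against 384 to 584 CPM in endothelial cells, 768 to 1367 CPM in pericytes and 350 to 488 CPM in microglia. Smooth muscle was above all the other classes in every library. Ndufa13 lies within Yjefn3 on the same strand and Ndufb9 overlaps Gm49356, so part of their counts may be assigned elsewhere. The single member that fell was Sdhaf4, which helps to insert the flavoprotein of complex II, at -1.27 ± 0.18.

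Among members called higher in smooth muscle the NRF1 letters were rarer than among the others, while the GABPA letters were about as common. Neither difference was tested. The NRF1 letters were present in 5 of 36 promoters of members called higher in smooth muscle and in 14 of 34 promoters of members tested and not called higher, and the GABPA letters in 11 of 36 and 9 of 34. Sdhd, which holds both, was not called, Uqcr11 was (1.18 ± 0.09) and so was Ndufa11 (1.26 ± 0.10).

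**Figure D2:**
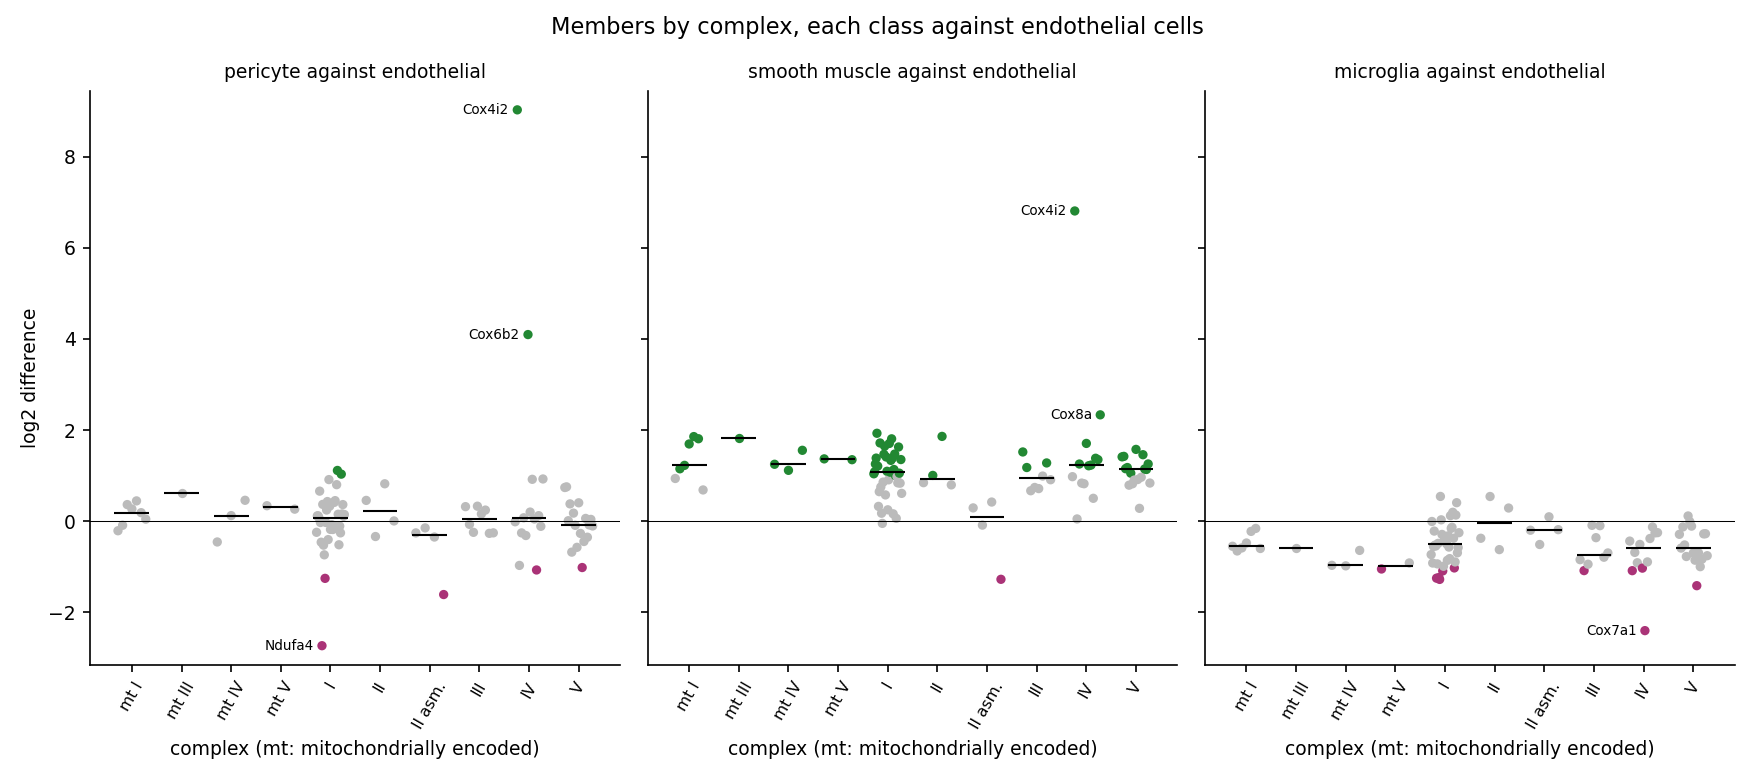
Log2 difference of each tested member between pericytes, smooth muscle cells or microglia and endothelial cells, grouped by complex (mt: encoded in mitochondrial DNA; II asm.: Sdhaf assembly factors). Green points were called higher and purple points lower at an adjusted p under 0.05 and at least 2-fold, grey points were not called, and bars are medians: smooth muscle has 56 green points and pericytes 4, with Cox4i2 at 9.03 and 6.81.

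Pericytes differed from endothelial cells less in amount than in isoforms. Of 97 members tested, 4 were called higher and 5 lower, where 12.3% of 11589 genes were called higher and 18.1% lower, and the median was 0.27 for mitochondrial and 0.00 for nuclear members against -0.15 for all genes. Among the members called higher were Cox4i2 (9.03 ± 0.17), Cox6b2 (4.10 ± 0.56) and Ndufs7 (1.03 ± 0.15), a core subunit of complex I. Those called lower were Ndufa4 (-2.73 ± 0.17), Sdhaf4 (-1.61 ± 0.35), Ndufa8 (-1.25 ± 0.17), Cox7a2l (-1.07 ± 0.16), which joins complexes III and IV, and Atp5j (-1.02 ± 0.13). With the mixed barcodes kept, those carrying many markers of another class, 0 members were called lower and 2 higher.

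Cox4i2, the alternative isoform of the regulatory subunit Cox4i1, stood at 651, 602 and 1019 CPM in control pericytes and 604, 568 and 820 CPM in iECKO pericytes. Smooth muscle held 121, 90.5 and 99.7 CPM in controls and 91.3, 155 and 130 CPM in iECKO. Endothelial cells held 0.717 to 1.57 CPM, and microglia had 0 UMIs in all libraries, which allows up to 1.24 CPM over the class (3 counts, counting error only). The order pericyte, smooth muscle, endothelial held in every library without overlap.

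Cox4i1 itself was similar in both classes, at 430 to 728 CPM in pericytes and 441 to 561 CPM in endothelial cells, so Cox4i2 made up 54.7% ± 6.55 (SD, n = 6) of the summed Cox4i1 and Cox4i2 UMIs in pericytes, 12.3% ± 3.74 in smooth muscle and 0.235% ± 0.0638 in endothelial cells. Cox4i1 overlaps the gene model Gm20388 over its whole length on the same strand, which can lower its count alike in all classes. The endothelial level of Cox4i2 was 0.197% of the pericyte level (median over libraries), and the 10 pericyte markers summed stood at 0.211% in endothelial cells. In smooth muscle Cox4i2 was at 15.5% of the pericyte level, above the 6.45% of the pericyte markers in 6 of 6 libraries.

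Ndufa4 showed the opposite pattern. It stood at 102, 72.5 and 62.4 CPM in control pericytes and 151, 92.5 and 90.4 CPM in iECKO pericytes, against 668, 475 and 596 CPM and 591, 454 and 626 CPM in endothelial cells of the same libraries, 609 to 965 CPM in smooth muscle and 135 to 352 CPM in microglia. Pericytes were lowest in every library, and the highest pericyte value lay above only the lowest microglial value. Its paralogue Ndufa4l2, which is induced by hypoxia in many cells and is not one of the 101 members, ran the other way, at 1571, 1065 and 1642 CPM in control pericytes and 1219, 919 and 1576 CPM in iECKO pericytes, 106 to 246 CPM in smooth muscle and 1.16 to 3.01 CPM in endothelial cells.

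Of the summed Ndufa4 and Ndufa4l2 UMIs, Ndufa4l2 took 93.0% ± 2.67 in pericytes, 19.3% ± 5.82 in smooth muscle and 0.326% ± 0.175 in endothelial cells. Endothelial RNA in the pericyte sums was measurable: the 12 endothelial markers stood there at 5.29% of their endothelial level (4.05% to 9.35%), with up to 3 of them at 0. Ndufa4 stood at 15.3% of its endothelial level (10.5% to 25.5%), above the markers in 6 of 6 libraries. The same 12 markers were among those used to drop mixed pericyte barcodes, which lowers them in the cells kept. The comparison therefore cannot tell Ndufa4 made in pericytes from endothelial RNA. Markers of smooth muscle (9 genes) stood in pericytes at 8.87% to 15.1% of their smooth muscle level, and their part in the pericyte values was not tested. When the mixed barcodes were kept, the Ndufa4 difference was -0.43 and lost its call.

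**Figure D3:**
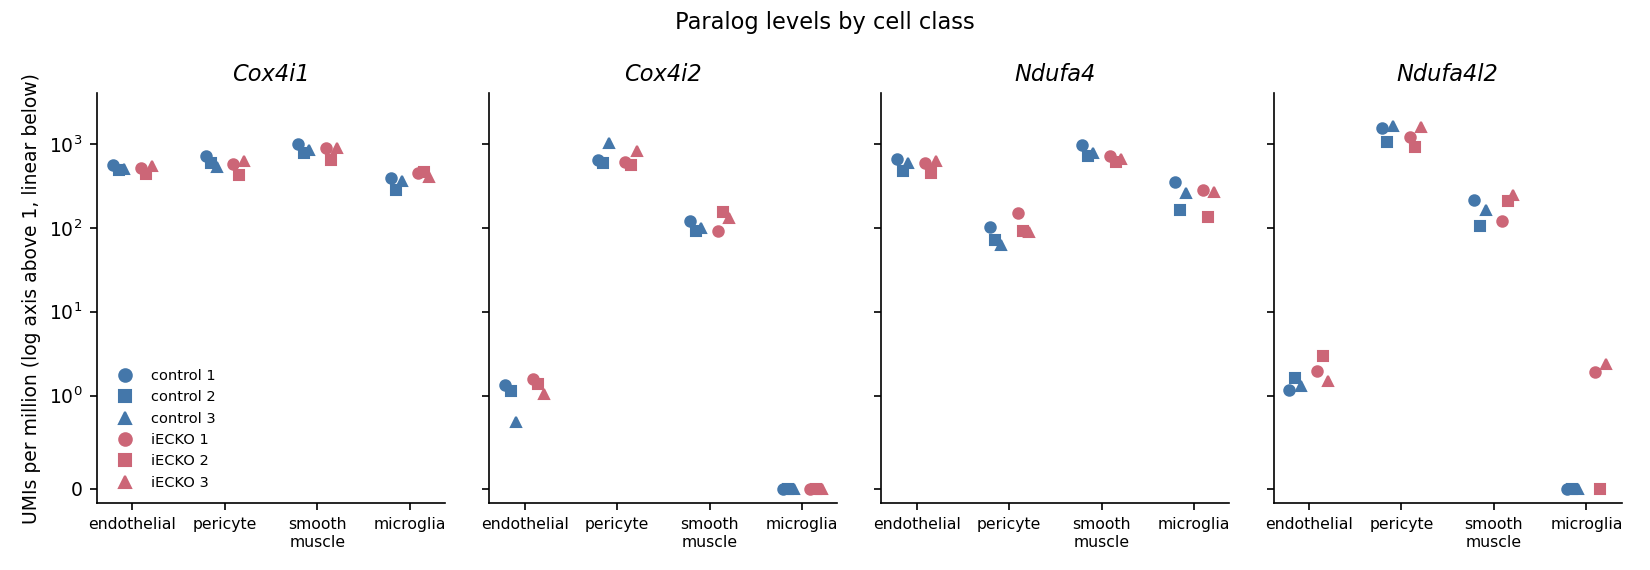
Level of Cox4i1, Cox4i2, Ndufa4 and Ndufa4l2 in CPM (axis logarithmic above 1 and linear below) in 4 cell classes; each point is 1 library, coloured by group and shaped by replicate. Pericytes hold 568 to 1019 CPM of Cox4i2 and 62.4 to 151 CPM of Ndufa4, and endothelial cells 0.717 to 1.57 and 454 to 668.

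The other pericyte calls were less firm. Ndufs7 lost its call in 7 of 18 alternatives and Atp5j in 8 of 18, mostly by passing under the 2-fold limit. Cox6b2, an isoform best known from testis, rested on 18 UMIs in all pericytes (1 to 7 by library, or 7.25 to 39.1 CPM), and Sdhaf4 on 14 UMIs.

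Pericyte mitochondrial mRNAs did not move together. Although 0 of 13 reached 2-fold, mt-Cytb (0.61 ± 0.10, edgeR's quasi-likelihood test, Benjamini-Hochberg adjusted p = 1.79e-08) and mt-Co3 (0.46 ± 0.10) were higher than in endothelial cells at an adjusted p under 0.05, and mt-Co1 was lower (-0.45 ± 0.10, edgeR's quasi-likelihood test, Benjamini-Hochberg adjusted p = 5.57e-05). As a part of all mitochondrial mRNA, mt-Co1 made up 8.39% ± 0.503 in pericytes against 13.3% ± 0.711 in endothelial cells and 11.1% to 12.7% in smooth muscle, with 7.72% the lowest and 9.18% the highest pericyte library. For mt-Cytb the parts were 13.2% ± 0.697 in pericytes, 13.4% ± 0.262 in smooth muscle and 10.0% ± 0.350 in endothelial cells. For mt-Nd1 they were 3.65% ± 0.408, 3.54% ± 0.280 and 4.87% ± 0.370. Pericytes and smooth muscle were thus alike in mt-Cytb and mt-Nd1 and apart in mt-Co1. The mt-Co1 difference was 0.11 with the mixed barcodes kept.

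Microglia held less of most members. Of 95 tested, 11 were called lower and 0 higher, where 23.5% of 11880 genes were called lower and 17.8% higher, so the share of members past the 2-fold limit was below that of all genes although 0 of 13 mitochondrial and only 10 of 82 nuclear estimates were positive. The medians were -0.60 for mitochondrial and -0.51 for nuclear members against -0.12 for all genes. Those called were Cox7a1 (-2.40 ± 0.69, from 3 microglial UMIs), Atp5j (-1.41 ± 0.13), Ndufa8 (-1.28 ± 0.14), Ndufa4 (-1.25 ± 0.13), Ndufa7 (-1.24 ± 0.13), mt-Atp6 (-1.05 ± 0.13) and 5 more nuclear subunits. The count ran from 6 to 27 over the alternatives.

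Atp5j stood at 299, 202 and 217 CPM in control microglia and 275, 216 and 217 CPM in iECKO microglia against 501 to 735 CPM in endothelial cells, with no overlap. Microglia alone expressed Cox6a2, the heart and muscle isoform of cytochrome c oxidase subunit VIa, above a trace: 25 UMIs in all, or 11.8, 6.20 and 9.36 CPM in controls and 15.4, 0 and 9.52 CPM in iECKO. It made up 6.53% ± 3.66 of Cox6a1 and Cox6a2 there, had 0 UMIs in pericytes and smooth muscle and 3 UMIs in all endothelial cells. Cox6a2 overlaps Itgad over 953 bases on the other strand, and the part of Itgad in these counts was not tested.

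The c ring of ATP synthase is built from 1 mature protein encoded by Atp5g1, Atp5g2 and Atp5g3. Atp5g2 supplied 49.2% ± 3.39 of the 3 in endothelial cells and 52.9% ± 3.14 in microglia. Atp5g3 supplied 37.2% ± 2.79 in pericytes and 36.1% ± 5.69 in smooth muscle, 25.5% ± 2.47 in endothelial cells and 17.9% ± 2.01 in microglia. The pericyte and smooth muscle values lay above all endothelial values, and the microglial values (16.4% to 21.8%) below them.

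Within the endothelium, 2402 arterial, 17508 capillary and 1283 venous cells were compared, and of these 3 zones the arterial zone had the lowest share of respiratory chain transcripts as a whole. The mitochondrial share was 3.17%, 3.92% and 2.91% in control and 3.87%, 4.51% and 4.19% in iECKO arterial cells, 4.22%, 4.99% and 3.57% and 4.52%, 5.40% and 4.90% in capillary cells of the same libraries, and 4.39%, 5.76%, 3.84%, 4.44%, 5.26% and 5.71% in venous cells. Arterial cells were lower than capillary cells in 6 of 6 libraries, though the ranges over libraries overlap. Paired by library, the arterial mitochondrial share was lower by 0.29 ± 0.08 (log2 difference -0.29) and the nuclear share lower in 5 of 6 libraries (-0.18 ± 0.14). The venous nuclear share was higher in 6 of 6 libraries (0.15 ± 0.04). The arterial zone joined a subcluster led by Islr2, with a nuclear share of 1.17% to 1.58% by library, and one led by Fbln5, with 1.40% to 2.18%; the first lay below capillary cells of the same library in 6 of 6 libraries and the second in 3 of 6. The mix differed by library, from 79 Islr2-led and 211 Fbln5-led cells in iECKO replicate 1 to 473 Islr2-led cells of 596 in control replicate 3, and its part in the arterial values was not tested. The mitochondrial share was below that of capillary cells of the same library in both subclusters, at 2.96% to 4.23% and 2.77% to 4.99%. Capillary cells were a mix too. Their largest subcluster, led by Gm26917 (4771 cells), had a nuclear share of 1.06% to 1.38%, below both arterial subclusters in every library. Its mitochondrial share, 3.69% to 4.96%, was above the Islr2-led arterial subcluster in every library. The part of the capillary mix in the zone differences was not tested. The mitochondrial to nuclear ratio was lower in arterial cells (-0.11 ± 0.11, higher in 0 of 6 libraries), though it turned to 0.12 among cells of 2000 to 6000 UMIs. In venous cells it was -0.06 ± 0.14 (higher in 2 of 6, exact permutation p = 0.344). The arterial mitochondrial difference, the arterial ratio and the venous nuclear difference reached the smallest p possible in the exact permutation test. Their adjusted p over 6 tests was 0.0625.

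Gene by gene, zones were called at an adjusted p under 0.05 with no fold limit (edgeR's quasi-likelihood test, library as a block). In arterial against capillary cells, 13 of 13 mitochondrial and 51 of 82 nuclear members were called lower and 0 higher, where 13.5% of 11382 genes were called lower and 14.3% higher. Medians were -0.34 for mitochondrial and -0.22 for nuclear members against -0.01 for all genes. Complexes I (27 of 37), III (5 of 8), IV (6 of 12) and V (13 of 17) took part, and 0 of 4 subunits and 0 of 4 assembly factors of complex II were called. Most differences were small: mt-Nd2 (-0.49 ± 0.07), mt-Nd4l (-0.45 ± 0.06) and mt-Cytb (-0.41 ± 0.07) led the mitochondrial part and mt-Nd5 (-0.26 ± 0.07) ended it. The largest nuclear differences were Cox7a1 (-1.06 ± 0.23, on 60 arterial UMIs), Ndufa8 (-0.97 ± 0.16), Ndufa3 (-0.50 ± 0.07), Ndufs4 (-0.39 ± 0.06) and Ndufs8 (-0.38 ± 0.07). The number called lower was 42 without control replicate 1, 2 or 3 and 86 without iECKO replicate 1.

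Venous cells were the reverse for nuclear members and mixed for mitochondrial members. Against capillary cells, 53 of 82 nuclear and 7 of 13 mitochondrial members were called higher, and 2 nuclear members, Cox7a1 (-0.56 ± 0.18) and Ndufa7 (-0.32 ± 0.05), lower, where 22.6% of 11280 genes were called higher and 20.5% lower. Medians were 0.20 for nuclear and 0.14 for mitochondrial members against 0.00 for all genes. After Ndufa8 came Atp5g2 (0.66 ± 0.06), Cox7a2l (0.49 ± 0.05), Uqcrh (0.46 ± 0.05) and Sdhaf3 (0.45 ± 0.13), and mt-Co1 (0.42 ± 0.05) led the mitochondrial part. Venous cells were also deeper, with median depths of 4565 to 13625 UMIs per cell against 3460 to 5533 in capillary cells. Among cells of 2000 to 6000 UMIs, 10 nuclear and 8 mitochondrial members were called higher and 1 lower, and arterial calls were 71 nuclear and 11 mitochondrial, all lower.

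mt-Co1 made up 15.1% ± 0.948 of mitochondrial mRNA in venous cells against 12.8% ± 0.767 in capillary cells, higher in venous cells in every library. mt-Co1 stood at 7180, 8398 and 6155 CPM in control and 6878, 7488 and 8088 CPM in iECKO venous cells, against 5622, 5978 and 4960 CPM and 5828, 6442 and 6393 CPM in capillary cells.

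**Figure D4:**
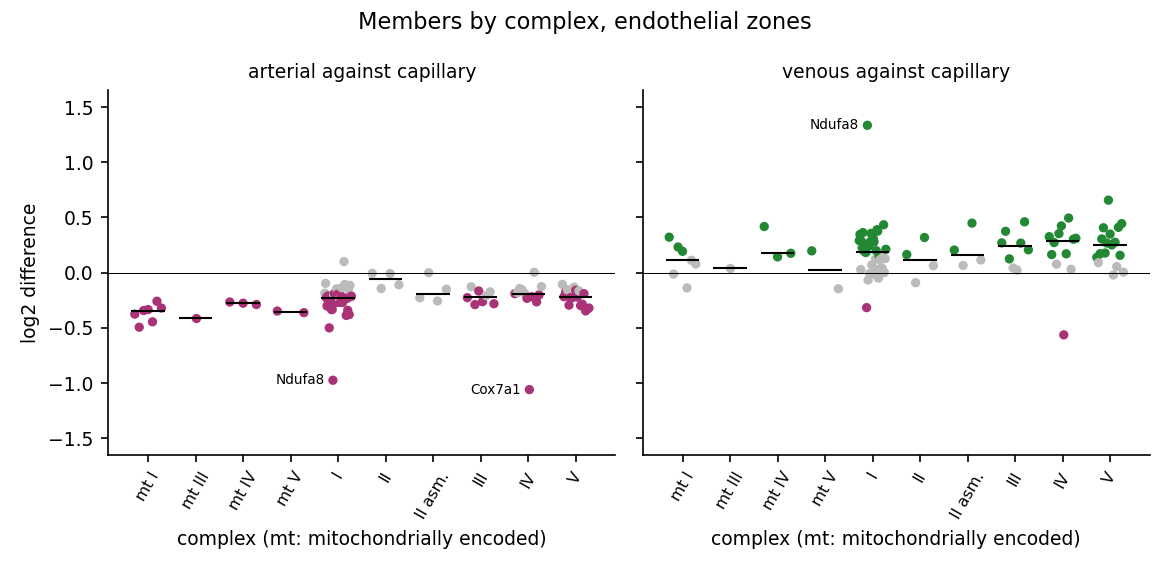
Log2 difference of each tested member in arterial (left) and venous (right) against capillary endothelial cells, grouped by complex (mt: encoded in mitochondrial DNA; II asm.: Sdhaf assembly factors). Purple points were called lower and green points higher at an adjusted p under 0.05, grey points were not called, and bars are medians: 64 points are purple on the left, 60 green on the right, and Ndufa8 lies at -0.97 and 1.33.

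Ndufa8 (chr2:36036326-36049406, minus strand, GENCODE M21) was the member with the steepest zonation. This accessory subunit of complex I, held in the intermembrane space by paired cysteines, stood at 118, 94.5 and 117 CPM in control and 148, 87.8 and 120 CPM in iECKO arterial cells. Capillary cells held 286, 206 and 290 CPM in controls and 163, 149 and 229 CPM in iECKO, and venous cells 648, 516 and 596 CPM and 522, 336 and 473 CPM. The order arterial, capillary, venous held in 6 of 6 libraries, and the highest arterial value, 148 CPM in iECKO replicate 1, lay just under the lowest capillary value, 149 CPM in iECKO replicate 2. Ndufa8 was lower in arterial cells by 0.97 ± 0.16 (log2 difference -0.97, edgeR's quasi-likelihood test, Benjamini-Hochberg adjusted p = 0.00245) and higher in venous cells (1.33 ± 0.07, edgeR's quasi-likelihood test, Benjamini-Hochberg adjusted p = 6.45e-10), and it kept both calls under all 18 alternatives, at -1.30 to -0.85 and 1.23 to 1.49.

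Between iECKO and control endothelial cells, no respiratory chain gene differed beyond the spread between libraries unless the libraries were paired. Of 97 members tested in endothelial cells, 0 were called in either direction by edgeR, where 0.0151% of 13236 genes were called; 1 member had an unadjusted p under 0.05, and DESeq2 called 0 higher and 0 lower. The median was 0.22 for mitochondrial mRNAs, 11 of 13 of them positive, and -0.07 for nuclear members, 23 of 84 positive, against 0.00 for all genes. The mitochondrial estimates ran from mt-Nd4l at -0.27 ± 0.25 and mt-Nd4 at -0.04 ± 0.19 to mt-Nd1 at 0.31 ± 0.19 and mt-Co3 at 0.37 ± 0.23, with mt-Cytb at 0.29 ± 0.22, mt-Co2 at 0.27 ± 0.22 and mt-Atp6 at 0.26 ± 0.22.

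The endothelial mitochondrial share was 4.15% ± 0.758 in controls and 4.83% ± 0.417 in iECKO (SD, n = 3 each, exact permutation p = 0.3), and the nuclear share 1.85% ± 0.269 and 1.73% ± 0.204 (exact permutation p = 0.5). Their log2 ratio was 0.94, 1.64 and 0.89 in controls 1 to 3 and 1.30, 1.81 and 1.35 in iECKO 1 to 3, a difference of 0.33 (exact permutation p = 0.3). The groups overlapped in all 3 measures. An exact permutation test of 3 libraries against 3 cannot give less than p = 0.1, and the adjusted p was 0.56 to 0.618 over 21 tests in 7 cell groups. Without control replicate 1 the nuclear difference of -0.13 turned to 0.01.

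Libraries of the same replicate number deviated together across genes, so they were paired by number here. The labels do not say that a replicate number marks a shared batch, so the pairing rests on these data. Within pairs, the endothelial mitochondrial share was higher in iECKO in 3 of 3, the nuclear share in 1 of 3 and the ratio in 3 of 3. Across endothelial cells, pericytes, smooth muscle and microglia, the ratio was higher in iECKO in 12 of 12 pairs. These classes share libraries and are not independent. Within a class, 3 pairs cannot give less than p = 0.25 in the exact sign-flip permutation test. Venous cells were the exception among zones, with 2 of 3 pairs higher, where arterial and capillary cells had 3 of 3. Median depth in endothelial cells was 3661 to 4827 UMIs in controls and 4188 to 5748 in iECKO, and the part of depth in the ratio was not tested. Pericyte markers in endothelial cells summed to 40.5 to 62.9 CPM in controls and 71.6 to 103 CPM in iECKO, and their part was not tested either.

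**Figure D5:**
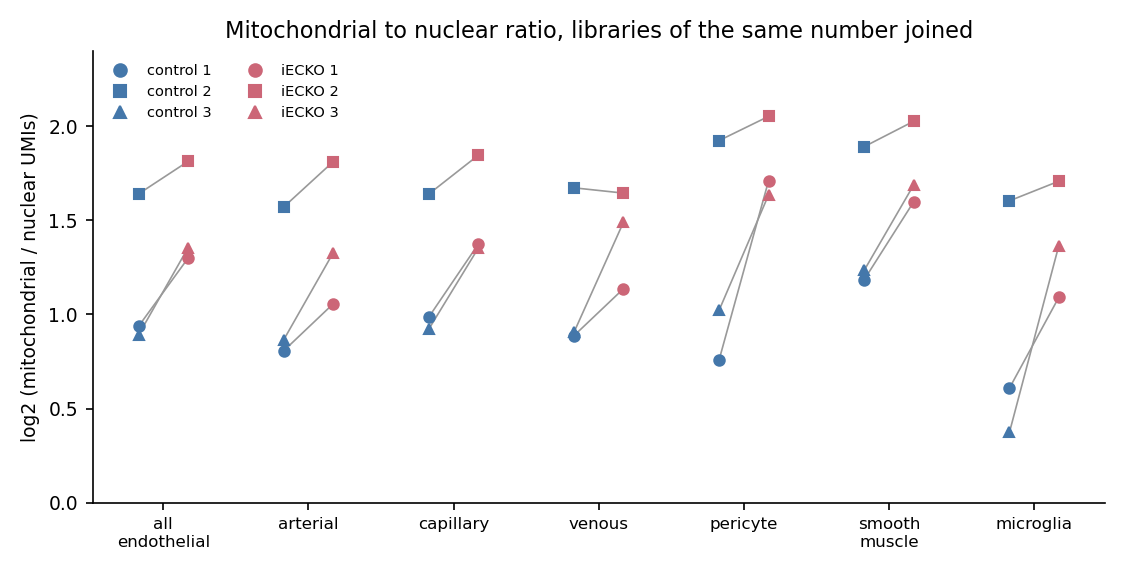
Log2 ratio of mitochondrial to nuclear respiratory chain UMIs by cell class and endothelial zone; each point is 1 library and lines join the control and iECKO libraries of the same replicate number. All lines rise but the one of replicate 2 in venous cells, and in endothelial cells replicate 2 of both groups lies highest (1.64 and 1.81).

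Ndufa8 was also the member with the lowest estimate in iECKO. Its level over all endothelial cells was 311, 242 and 305 CPM in controls and 217, 168 and 237 CPM in iECKO, and the groups did not overlap. The difference was -0.45 ± 0.19 (edgeR's quasi-likelihood test, Benjamini-Hochberg adjusted p = 0.653). With the replicate number as a block it was -0.45 ± 0.09 (edgeR's quasi-likelihood test, Benjamini-Hochberg adjusted p = 0.0445), and it was the only member called in either direction, where 1.6% of genes were called. In capillary cells the blocked difference was -0.52 ± 0.11 (edgeR's quasi-likelihood test, Benjamini-Hochberg adjusted p = 0.0295), again the only member called, where 4.35% of 12512 genes were called. Neither call was kept once a capillary subcluster led by Apln, which moved with genotype, was left out.

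Without the block, 0 members were called in any zone or other class, where the share of genes called in either direction was 0.0637% in pericytes, 0.0145% in smooth muscle, 2 of 6390 genes in microglia, 0.152% in capillary cells and 0% in arterial and venous cells. With the block, 0 members were called in pericytes (0.319% of genes called), smooth muscle (0.188% of genes), arterial cells (0.497%) and venous cells (1.09%). In microglia the block called 1 member, mt-Co3, which was higher (0.83 ± 0.17, edgeR's quasi-likelihood test, Benjamini-Hochberg adjusted p = 0.0151), where 0.329% of 6390 genes were called. mt-Co3 stood at 2711, 4440 and 1714 CPM in control and 4301, 5916 and 4663 CPM in iECKO microglia, so the groups overlapped. Whether the zone differences of members depend on genotype was tested as an interaction, and 0 of 96 members were called, where 0.101% of genes were called for arterial and 0.923% for venous cells. For Ndufa8 the arterial difference from capillary cells was less negative in iECKO by 0.65 ± 0.18 (edgeR's quasi-likelihood test, Benjamini-Hochberg adjusted p = 0.342, 0.0108 without iECKO replicate 3 and 0.000526 with no filter on low counts).

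The capillary subcluster led by Apln held 0.587%, 0.457% and 0.577% of endothelial cells in controls and 55.3%, 19.9% and 5.01% in iECKO, and so moved with genotype and between iECKO libraries. Its nuclear share was 1.51% to 1.94% and its mitochondrial share 3.54% to 5.15% in the 5 libraries with at least 20 of its cells. With it left out, an alternative chosen after seeing the data, the blocked fit called 0 of 97 members in endothelial and in capillary cells. The blocked difference of Ndufa8 was then -0.26 ± 0.10 in endothelial cells (edgeR's quasi-likelihood test, Benjamini-Hochberg adjusted p = 0.397) and -0.32 ± 0.09 in capillary cells (edgeR's quasi-likelihood test, Benjamini-Hochberg adjusted p = 0.0667).

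Other genes of the pathway, in 5 lists chosen by function, gave the setting for the members. They took part in clustering, so their class differences are a description. In endothelial cells, 0 of 18 biogenesis regulators, 0 of 37 assembly factors, 0 of 10 carriers and exchangers, 0 of 19 genes of the tricarboxylic acid cycle and pyruvate entry and 0 of 6 mitochondrial antioxidants were called between genotypes, with list medians from -0.03 to 0.08.

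In smooth muscle, 11 of 19 tricarboxylic acid cycle and pyruvate genes were higher by the class rule and 0 lower (median 1.12), 7 of 10 carriers and exchangers higher and 1 lower (median 1.27), 3 of 6 antioxidants higher, 4 of 18 biogenesis genes higher and 1 lower (median 0.23), and 3 of 37 assembly factors higher and 1 lower (median 0.37), where 15.2% of all genes were higher and 21.7% lower. The difference between these lists and the members was not tested. Idh2, the mitochondrial NADP-linked isocitrate dehydrogenase, was at 3.19 ± 0.12, Slc25a4, an ADP/ATP exchanger of muscle, at 2.49 ± 0.09, and Atpif1, the inhibitor of ATP synthase, at 2.11 ± 0.11. The coactivators of mitochondrial biogenesis Ppargc1b (6.78 ± 0.30) and Ppargc1a (2.64 ± 0.34) were higher and Ucp2, an uncoupling protein homologue, lower (-5.17 ± 0.20).

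Pericytes shared the high Ppargc1b (6.41 ± 0.44), Slc25a4 (1.27 ± 0.12) and Idh2 (1.64 ± 0.24) and the low Ucp2 (-3.37 ± 0.23), but few other genes of these lists. In pericytes 1 of 19 tricarboxylic acid cycle and pyruvate genes, 2 of 18 biogenesis genes, 2 of 10 carriers and exchangers and 1 of 6 antioxidants were higher. Of the carriers and exchangers 1 was lower, and of the other 3 lists 0. Among 37 assembly factors, 1 was higher and 4 lower, a share under the 12.3% and 18.1% of all genes. Sco2, a copper chaperone of complex IV, stood at -3.23 ± 0.72. In microglia, 5 of 16 tested biogenesis genes were higher and 0 lower (median 0.19), where 17.8% of all genes were higher and 23.5% lower, among them Twnk (1.90 ± 0.29), the mitochondrial helicase, while the members themselves were low. In arterial against capillary cells 8 of 37 assembly factors were lower and 1 higher, where 13.5% of all genes were lower and 14.3% higher, and Ppargc1a was higher (0.97 ± 0.24) while the members were lower.

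The share of members also varied with cell depth and state within every library. In endothelial cells of 1000 to 2000 UMIs the mitochondrial share was 5.74% (median of 6 libraries) and the nuclear share 1.28%, against 4.50% and 1.90% in cells of at least 8000 UMIs, and both differences held in 6 of 6 libraries. Cells with 4% to 6% mitochondrial UMIs had a nuclear share of 1.87%, above the 1.46% of cells under 2% and the 1.51% of cells with at least 8%, in 6 of 6 libraries each. The 2 parts thus moved together at low and apart at high mitochondrial content. Cells of at least 8% were also shallow, with median depths of 1464 to 2707 UMIs.

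Among capillary subclusters the nuclear share ran from 1.06% to 1.38% by library in the one led by Gm26917 to 1.98% to 2.58% in the one led by Car4 and Hist1h1e. Their mitochondrial shares overlapped, at 3.69% to 4.96% and 3.93% to 6.60%. The barcodes left out for more than 15% mitochondrial UMIs fell most on smooth muscle, 39 of 143 of its barcodes in control replicate 2 and 6 of 40 in iECKO replicate 2. In control replicate 2 the barcodes left out had a mitochondrial share of 25.5% and a nuclear share of 1.44%, against 11.2% and 3.01% in the cells kept.

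Single mitochondrial mRNAs carried a mark of the replicate. mt-Nd2 made up 9.86% and 9.60% of mitochondrial mRNA in endothelial cells of replicate 2 of control and iECKO, against 6.63% to 6.86% in the other 4 libraries, and the same libraries were highest in every class. mt-Atp8 ranged from 0.614% in iECKO replicate 3 to 2.21% in iECKO replicate 1, while mt-Atp6 stayed between 20.8% and 22.0%.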

How the data were processed

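Whole-number UMI counts per gene and barcode were deposited by the authors, which per the file headers came from Cell Ranger 6.1.1, on genome build mm10 per the submitters' processing notes, which also name Seurat; the annotation release is not given in the sources used here. Gene positions and overlaps came from GENCODE M21 (32235 of 32286 identifiers and all 101 members found). The members and lists were chosen with earlier results of these data known.

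Barcodes under 1000 UMIs or 500 genes, or above 15% mitochondrial UMIs, were dropped. The Scrublet threshold called only 8 doublets, so the highest doublet scores, 0.8% per 1000 barcodes, were removed instead (1243 barcodes). Cells were clustered (scanpy 1.11.5, Leiden) on 2000 variable genes without the members, named from markers, and mixed barcodes were left out (152 to 1270 per library): those with at least 50% of the markers of another class detected, related classes such as pericytes and smooth muscle excepted, and endothelial subclusters led by markers of another class. Counts were summed per library and class, with at least 20 cells, and fitted over all genes by edgeR 4.0.16 quasi-likelihood tests (TMM factors, R 4.3.3) with Benjamini-Hochberg adjustment. Gene shares and ratios were compared by two-sided exact permutation tests over every arrangement of the libraries (Python 3.11.15). Class and zone fits had the library as a block, and genotype fits compared 3 libraries with 3.

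Same-numbered control and iECKO libraries deviated together (r = 0.431, 0.519 and 0.498 over 13236 genes), so the blocked fit is given beside each result whose call it changes. All other pairs were negatively correlated. Each group was centred on its own mean, which pushes the other pairs that way, so they add no separate evidence. Named are all mitochondrial mRNAs, members with tissue isoforms, the 5 largest called differences each way per comparison, and the 2 most abundant members of each complex; other names were chosen after their values were seen. A result for 1 named member is not reported here. DESeq2 1.42.0, RLE factors, other cell and count filters, equal cell numbers, control libraries only and leaving out each library were tried as alternatives. Tests on simulated data recovered 52% of changes of 1 on the log2 scale between genotypes in endothelial cells and 96% between arterial and capillary cells. Between pericytes and endothelial cells 54% were recovered, but there a call also needs 2-fold, and a change of 1 lies on that limit. That rate is therefore set by the limit and is not comparable with the others. Of changes of 2, 100% were recovered in each. The simulated counts had the same dispersion for every gene and no library effect.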

Additional observations from a re-analysis of the deposited data

Results flagged for a closer look

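The nuclear share of arterial against capillary cells was 0.0930 on the log2 scale in iECKO replicate 1, while the other 5 libraries were negative, so this library lay apart from the rest. Its arterial cells were 211 of an Fbln5-led subcluster with a nuclear share of 1.99% and 79 of an Islr2-led subcluster with 1.25%, and the part of this mix was not tested. It was 1 of 15 sets of paired values examined, and chance marks about 1 in 20 such sets.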

How the results depend on the processing

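With the replicate number as a block, 1 member was called lower in endothelial cells, 1 lower in capillary cells and 1 higher in microglia between genotypes, where 0 were called without it; the pairing changed no other call of a member. Without the Apln-led subcluster, chosen after seeing the data, the block called 0 in endothelial and capillary cells. Of the other pathway genes, the block called Slc25a5, Mpc1 and Txn2 higher in capillary cells; outside these lists, it called Cldn5 lower in endothelial cells (adjusted p = 0.00658 by edgeR's quasi-likelihood test with Benjamini-Hochberg adjustment, against 0.279). With at most 5% mitochondrial UMIs per cell, pericytes had 2 members higher and 10 lower, microglia 7 lower, and the pericyte differences were 0.0054 (mitochondrial share), 0.0713 (nuclear share) and -0.0659 (ratio), the microglial ratio -0.21, the arterial ratio -0.0405 and the venous mitochondrial share 0.0678. Pericyte estimates that turned negative there were mt-Co2 -0.48, mt-Atp8 -0.20, mt-Atp6 -0.22, mt-Co3 -0.12, mt-Nd3 -0.22, mt-Nd4l -0.0514, mt-Nd4 -0.30, mt-Nd5 -0.29, mt-Nd6 -1.21, Cox6a1 -0.23 and Cox7a2 -0.25; the limit itself caps mitochondrial counts. In cells of 2000 to 6000 UMIs, pericytes had 7 members higher and 2 lower and venous cells 18 higher and 1 lower; the ratio was -0.0146 in pericytes, 0.18 in smooth muscle, 0.12 in arterial and 0.17 in venous cells, the nuclear share 0.95 in smooth muscle and 0.0611 in venous cells, pericyte Cox4i1 0.15 and Atp5g1 0.16, microglial Atp5g2 0.15, and venous mt-Nd2 0.24, mt-Atp8 0.23 and mt-Nd4l 0.17. With mixed barcodes kept, pericytes had 2 higher and 0 lower, microglia 6 lower and venous cells 4 lower; pericyte mt-Nd1 was 0.0738, mt-Co1 0.11, Cox6b1 0.15, Atp5g1 0.20 and Atp5g2 0.0536, and venous mt-Nd6 -0.0075. With no filter on low counts, microglia had 1 higher and 25 lower, arterial cells 1 higher, venous cells 4 lower (mt-Cytb -0.0097) and the arterial difference by genotype 1 higher. With equal cell numbers, pericytes had 2 higher and microglia 27 lower. Control libraries only gave microglia 18 lower, arterial cells 1 higher, and pericyte mt-Co2 -0.0926 and Cox6a1 -0.12. With no mitochondrial limit pericyte mt-Nd2 was 0.0765, with at least 2000 UMIs the microglial ratio was -0.31, and DESeq2 called 1 venous member lower. Except as said, the cause was not tested.

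Leaving out each library in turn, members called lower ran from 42 to 86 in arterial cells, 9 to 17 in microglia and 2 to 4 in venous cells, and members called higher from 0 to 1 in arterial cells, 0 to 1 in microglia against endothelial cells, 0 to 1 in microglia between genotypes and 0 to 2 for the arterial difference by genotype. Between genotypes the endothelial difference ran from 0.325 to 1.08 for the mitochondrial share, -0.260 to 0.0085 for the nuclear share and 0.17 to 0.57 for the ratio. Smooth muscle with at most 5% mitochondrial UMIs was not run, since too few cells were left. Pericytes had 36 to 81 cells per library.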
